A study of Saccharomyces cerevisiae with 14 samples.

Results

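Transcripts of the artemisinic acid producer EPY330 were compared with those of EPY338, the same yeast with an inactive amorphadiene oxidase (AMO), after 72 h of galactose induction. The comparison rests on the 5 slides labelled 72 h (replicates A to E) of the 14 slides in the series. Of the 6040 ORFs in the deposited table, 5945 had a value on at least 3 of these slides and are described here, 5327 with a value on all 5, 400 on 4 and 218 on 3. The other 95 were not analysed here.

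EPY330 carries amorphadiene synthase, AMO (a cytochrome P450) and its reductase (CPR) on 1 plasmid, under GAL1 and GAL10 promoters and with a Leu2d marker, and converts farnesyl diphosphate through amorphadiene to artemisinic acid. EPY338 carries the same plasmid with a point mutation that inactivates AMO, so that the pathway it encodes ends at amorphadiene. Both hosts derive from BY4742 with galactose-driven truncated HMG-CoA reductase, upc2-1 and ERG20, with ERG9 behind the MET3 promoter, and with repaired LYS2 and URA3. Each strain was grown in YPG, a rich medium of galactose with some glucose, without selection for the plasmid. The paper's methods describe this medium as supplemented with methionine. Equal amounts of RNA from 5 independent transformants per strain were pooled before labelling. All 5 slides carry the same pair of pools, EPY330 in Alexa555 and EPY338 in Alexa647 without a dye swap. The SD between slides and every p-value below therefore measure slide error, not the spread between transformants, and a dye effect on a gene cannot be told apart from the strain difference. Values are means ± SD over the slides, with n = 5 unless another n is given. The plant genes and the AMO mutation were not analysed here.

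Budding yeast meets toxic organic molecules and organic acids with a set of membrane pumps, most of them ATP-binding cassette (ABC) transporters switched on by the zinc-finger factors Pdr1 and Pdr3. When sugar runs low, cells in late culture also turn to ethanol and acetate, respire, and fill up with small stress proteins of the stationary phase, while growth genes such as those for ribosomes and amino acid synthesis are turned down. Cell wall building, metal uptake and sterol synthesis each have regulators of their own and are read here as separate groups.

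Ratios are given as log2(EPY330/EPY338): above 0, the transcript was more abundant in EPY330. Each ORF's mean over the slides was tested against 0 in limma, and an ORF was called at a Benjamini-Hochberg adjusted p under 0.05 over all 5945 ORFs. A gene group is described by how many of its measured members were called and by the percent that makes, to be read against the shares over all ORFs (22.2% higher and 20.9% lower). For each gene the deposited table holds 1 ratio per slide and no fluorescence, so spots near background could not be set apart. A cDNA spot of a gene with close relatives can also bind the relatives' cDNA. Below this applies to the HXT, CUP1, MAL, IMA, histone and ribosomal protein genes and to LYS20 and LYS21, among others.

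The 5 slides fell into 2 sets. Over all ORFs, which are not independent points, Pearson's r was 0.71 to 0.78 among slides A, B and C and 0.78 between D and E, but 0.44 to 0.66 between the sets. Slides D and E also resembled the earlier time points more, with r of 0.51 to 0.71 against the 24 h slides, whereas A, B and C had -0.0020 to 0.45. Values on each slide are given for the main genes, and calls described at 72 h that were lost on slides A to C or on slides D and E alone are named. For want of values, no such fit could be made to slides A to C for UPC2, ATX1 and MRPL31. The same held on slides D and E for PDC6, CYS4 and ATP5. On every 72 h slide the ratio of an ORF also followed those of its neighbours in the order of ORF names (r of 0.27 to 0.34 with the median of the 25 ORFs on either side), and calls lost with that trend removed are named too.

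In all, 1317 ORFs were higher (22.2% of those tested) and 1245 lower (20.9%) in EPY330, 2322 of them with the same sign on every slide. Most of these differences were small, with a median log2 ratio of 0.54 among the ORFs called higher and -0.50 among those called lower, and over all ORFs tested the median was -0.02. More than 2-fold, 110 ORFs were higher (1.85%) and 41 lower (0.69%). The mean pointed the same way in both slide sets for each of these 151, and in each set it passed 2-fold for 53 of the higher and 14 of the lower. With the trend along the ORF order removed, 61 and 16 were still called and past 2-fold. Without slide B the count more than 2-fold lower was 24. Of the 2562 ORFs called, 7 had means of opposite sign in the sets. Slides A to C alone gave 1184 ORFs higher and 1153 lower, and slides D and E alone 1104 and 980. The largest mean that was not called belonged to UTP11, a factor of ribosome assembly, with 0.31 on slide B, 3.93 on slide C and 0.77 on slide D.

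**Figure D1:**
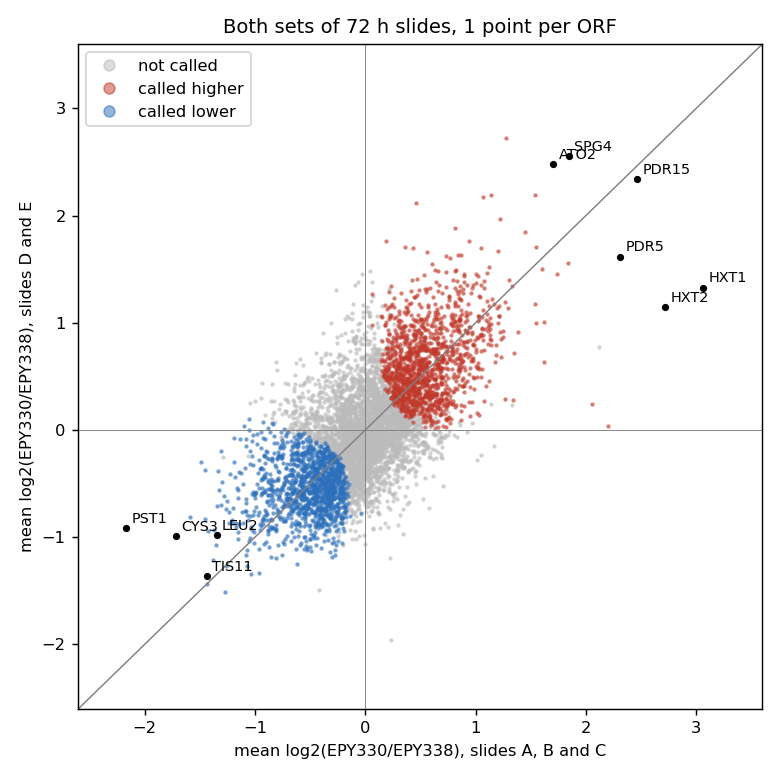
Mean log2(EPY330/EPY338) of each of the 5945 ORFs at 72 h over slides A, B and C (horizontal) and over slides D and E (vertical), coloured by the call over all 5 slides, with a diagonal line of equal values. HXT1, HXT2 and PST1 lay farther from 0 on slides A to C, while SPG4 and ATO2 were larger on D and E.

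Several pumps of the pleiotropic drug resistance family were higher in the producer, and 1 of them had the highest mean of all ORFs. Of 20 ABC transporters measured, 10 were higher, 1 lower and 9 not called (50% higher and 5% lower, against 22.2% and 20.9% of all ORFs), and 5 of them passed 2-fold. PDR15 (YDR406W), a plasma membrane multidrug pump, was that ORF, with 1.86, 2.93 and 2.61 on slides A, B and C and 2.38 and 2.30 on slides D and E. Its mean was 2.42 ± 0.40 (SD, n = 5 slides, adjusted p = 8.38e-05), or 5.34-fold, and slides D and E lay within the range of A to C. PDR5, the main exporter of drugs and steroids, read 2.38, 2.38 and 2.16 on slides A, B and C and 1.43 and 1.81 on slides D and E, a mean of 2.03 ± 0.41 (adjusted p = 0.000177). All 5 slides were at or above 1.43, with D and E the lowest. SNQ2, which exports a different range of compounds, had 1.87, 1.43 and 2.23 on slides A, B and C and 1.55 and 1.56 on slides D and E and a mean of 1.73 ± 0.32 (adjusted p = 0.000177). YOR1, the oligomycin pump of the same membrane, had 1.07, 1.62 and 1.94 on slides A, B and C and 1.30 and 1.05 on slides D and E and a mean of 1.40 ± 0.38 (adjusted p = 0.000341). Neither gene had a slide below 1. The median of the ABC list was 0.30 over slides A to C and 0.22 over D and E, with 10 and 8 members higher in fits to each set alone.

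Lipid and membrane genes of the drug resistance regulon were mostly higher as well. Of 12 measured, 8 were higher and 1 lower (66.7% higher and 8.33% lower), with a list median of 0.67 (0.55 on slides A to C, 0.80 on D and E). PDR16, a phosphatidylinositol transfer protein, had 1.25, 0.79 and 1.96 on slides A, B and C and 1.11 and 1.58 on slides D and E and a mean of 1.34 ± 0.45. ICT1, a lysophosphatidic acid acyltransferase, had 0.93, 1.04 and 1.40 on slides A, B and C and 1.32 and 1.72 on slides D and E and a mean of 1.28 ± 0.31. Both were higher at more than 2-fold (adjusted p = 0.000519 for PDR16 and 0.000308 for ICT1). PDR17, a relative of PDR16, averaged 0.99 ± 0.20 and the methylglyoxal reductase GRE2 0.97 ± 0.46, and both were called higher. The major facilitator pumps did not follow as a group, with 3 of 18 higher, 2 lower (16.7% higher and 11.1% lower) and a median of -0.06. Within it the polyamine exporter TPO1 rose, with 0.61, 0.80 and 0.84 on slides A, B and C and 0.82 and 1.48 on slides D and E, while its relative TPO2 fell, with -1.21, -1.54 and -1.60 on slides A, B and C and -0.35 and -1.31 on slides D and E. The mean of TPO2 was -1.20 ± 0.50 (adjusted p = 0.000948), and slide D stood at the shallow end of a range that held no positive value. SGE1, a dye and crystal violet pump, fell to a mean of -0.66 ± 0.09, and DTR1, the dityrosine transporter of spore walls, rose to 0.58 ± 0.27 (but 0.34 and no call on slides D and E alone).

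The transcripts of Pdr1 and Pdr3, the main activators of these pumps, were not called. PDR1 had -0.51, 0.44 and 0.07 on slides A, B and C and -0.09 and -0.45 on slides D and E (adjusted p = 0.557). PDR3 had 0.09, -0.06 and 0.20 on slides A, B and C and -0.26 and -0.29 on slides D and E (adjusted p = 0.647). Each had slides on both sides of 0. Of 16 regulators of drug, oxidant and acid resistance, 3 were higher and 5 lower (18.8% higher and 31.2% lower). With the trend along the ORF order removed 1 was higher and 3 were lower. CRZ1, the factor under calcineurin control, had the largest rise among them, 1.07, 1.36 and 0.996 on slides A, B and C and 0.68 and 0.91 on slides D and E (mean 1.005 ± 0.25, adjusted p = 0.000441). RDR1, a repressor of multidrug resistance genes, and STB5, an activator of the same family, fell to means of -0.72 ± 0.21 and -0.69 ± 0.20, each negative on all 5 slides. MSN4 of the general stress response averaged -0.54 ± 0.45, yet it read 0.27 on slide B and its call was lost on slides A to C alone and without any 1 of slides A, C, D or E.

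**Figure D2:**
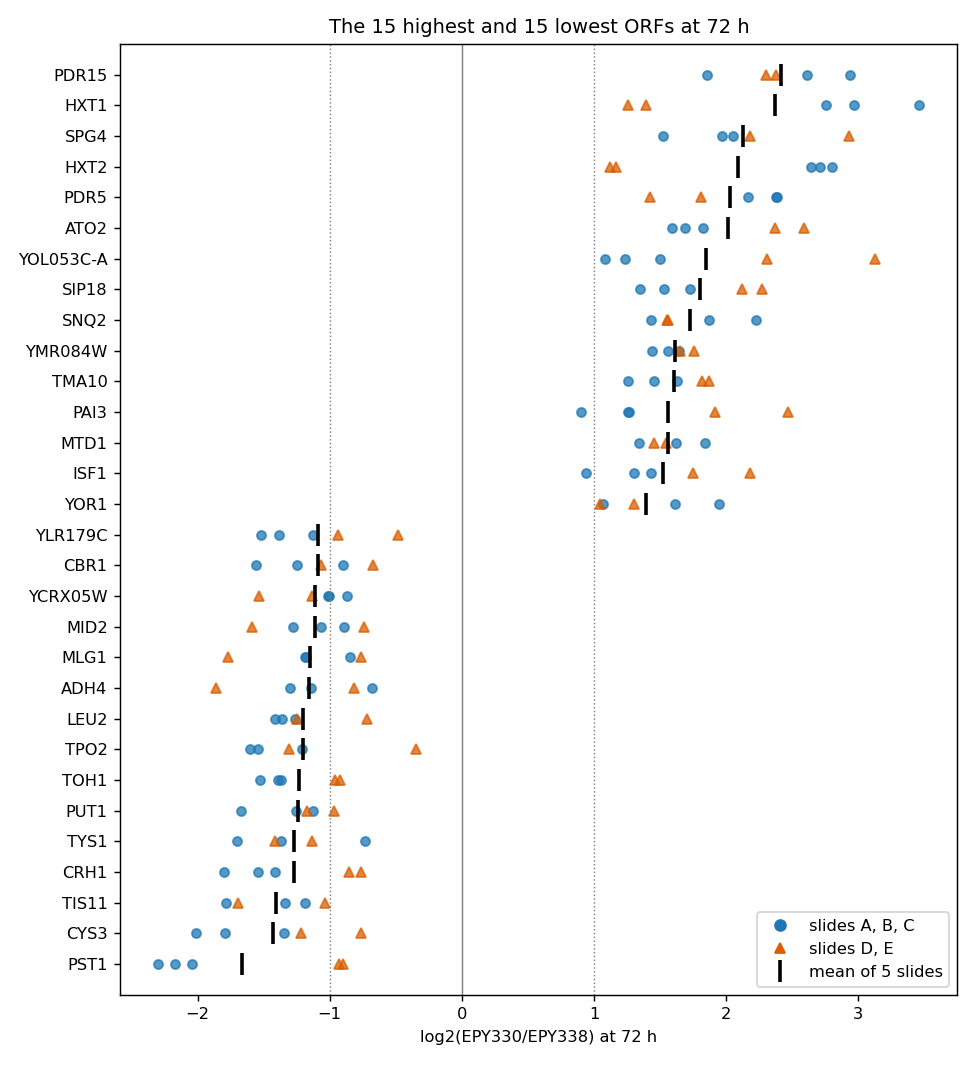
Log2(EPY330/EPY338) on each 72 h slide for the 15 ORFs with the highest and the 15 with the lowest mean among ORFs with a value and the same sign on all 5 slides; circles are slides A to C, triangles slides D and E, bars the mean, and dotted lines mark 2-fold. PDR15 averaged 2.42 and PST1 -1.67, and the circles and triangles separate for HXT1, HXT2, ATO2 and PST1.

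Some hexose transporters were higher by as much as the pumps. HXT1, the low-affinity glucose carrier, read 2.76, 2.97 and 3.46 on slides A, B and C and 1.26 and 1.39 on slides D and E. HXT2, a carrier of higher affinity, read 2.64, 2.71 and 2.80 on slides A, B and C and 1.12 and 1.17 on slides D and E. Their means were 2.37 ± 0.99 and 2.09 ± 0.86 (adjusted p = 0.000637 for HXT1 and 0.000658 for HXT2). In both the slides separated into sets, with A to C at or above 2.64 and D and E at or below 1.39. Of 19 members of the family and its sensors, 8 were higher and 3 lower (42.1% higher and 15.8% lower), with 9 higher in a fit to slides A to C alone and 4 in a fit to D and E. HXT4 was called at a mean of 1.33 ± 1.53 although slide E read -1.11, and the call was lost on slides D and E alone and without any 1 of slides A to D, while its mean without slide E was 1.94. The galactose permease GAL2 rose on every slide to 0.80 ± 0.18 (adjusted p = 0.000626). Of 9 galactose regulon genes, 3 were higher and 2 lower (33.3% higher and 22.2% lower). GAL7, the uridyltransferase, had 1.03, 0.91 and 1.20 on slides A, B and C and 0.06 and 0.93 on slides D and E, with slide D apart from the others, and was not called on D and E alone. GAL3, the galactose sensor, fell to -0.73 ± 0.20, and to -0.35 with the trend along the ORF order removed, still a call. GAL80, which represses the regulon, averaged 0.62 ± 0.43 and lost its call with that trend removed (mean 0.21). GAL1 itself had -0.22, -0.48 and 0.06 on slides A, B and C and 0.53 and 0.42 on slides D and E and was not called (adjusted p = 0.759), and GAL10 averaged -0.49 ± 0.47 with a call that was lost on each slide set alone. Among 11 maltase and isomaltase genes 3 were higher and 2 lower (27.3% higher and 18.2% lower), all at means between -0.46 and 0.49, and with the trend removed 0 were higher and 1 lower. IMA4, an isomaltase, averaged 3.54 at 24 h, 1.57 at 48 h and 0.49 at 72 h.

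Genes of glycolysis and alcoholic fermentation were called higher more often than ORFs at large, 12 of 26 (46.2%, against 22.2% of all ORFs), with 2 lower (7.69%). Of these genes 9 were higher and 6 lower on slides A to C alone, and 13 higher and 1 lower on D and E. ADH2, the alcohol dehydrogenase that consumes ethanol, read 1.32, 1.34 and 0.80 on slides A, B and C and 1.25 and 1.18 on slides D and E (mean 1.18 ± 0.22, adjusted p = 0.000294). ADH3, the mitochondrial isozyme, read 1.09, 1.16 and 0.89 on slides A, B and C and 1.74 and 1.66 on slides D and E (mean 1.31 ± 0.37, adjusted p = 0.000357). Both were at least 0.80 on every slide. PDC6, a minor pyruvate decarboxylase, had 1.11 on slide A, 1.41 on slide B, 1.51 on slide C and 0.28 on slide D and a mean of 1.08 ± 0.56 (n = 4 slides). ADH4, another alcohol dehydrogenase, was among the lowest ORFs, with -1.14, -1.30 and -0.68 on slides A, B and C and -0.82 and -1.86 on slides D and E and a mean of -1.16 ± 0.46 (adjusted p = 0.000868).

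Genes of gluconeogenesis, acetate use and the TCA cycle were called lower more often than higher over all 5 slides but not on D and E. Of 32 genes of gluconeogenesis and acetate use 6 were higher and 12 lower (18.8% higher and 37.5% lower), with a median of -0.24 on slides A to C and 0.08 on D and E. Taken by set, 7 were higher and 14 lower on slides A to C alone, and 6 higher and 6 lower on D and E. ACS2, the acetyl-CoA synthetase of glucose-grown cells, had -1.08, -1.02 and -1.26 on slides A, B and C and -0.68 and -0.85 on slides D and E (mean -0.98 ± 0.22, adjusted p = 0.000417). ICL1, isocitrate lyase of the glyoxylate cycle, had -0.76, -1.64 and -1.50 on slides A, B and C and -0.36 and -0.60 on slides D and E (mean -0.97 ± 0.56, adjusted p = 0.00367). CRC1, the mitochondrial carnitine carrier, fell to -0.82 ± 0.25, and the mitochondrial aldehyde dehydrogenase ALD4 rose to 0.85 ± 0.31. In the TCA cycle 7 of 17 genes fell and 1 rose (5.88% higher and 41.2% lower), and the split depended on the slides, with 10 lower and 1 higher on A to C against 4 lower and 4 higher on D and E. LSC2, a subunit of succinyl-CoA ligase, was negative on each slide, with -0.64, -0.63 and -0.69 on slides A, B and C and -0.67 and -0.50 on slides D and E (mean -0.63 ± 0.07). The one TCA gene that rose was CIT3, a mitochondrial citrate synthase, at 0.62 ± 0.15. In beta-oxidation 7 of 17 genes rose and 1 fell (41.2% higher and 5.88% lower), led by FOX2, the multifunctional peroxisomal enzyme, at 0.79 ± 0.23.

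The acetate and ammonium transporters of the ATO family were higher in all 3 members measured. ATO2 had 1.83, 1.69 and 1.59 on slides A, B and C and 2.59 and 2.37 on slides D and E (mean 2.01 ± 0.44, adjusted p = 0.000177), and ADY2, the acetate carrier, had 1.35, 1.72 and 1.78 on slides A, B and C and 0.66 and 0.62 on slides D and E (mean 1.23 ± 0.56, adjusted p = 0.00119). The sets ran in opposite order in the pair, since ATO2 was larger on D and E and ADY2 on A to C. ATO3, an ammonium exporter, averaged 0.37 ± 0.32 with slide A at -0.14, and its call was lost on each slide set alone.

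Most subunits of the terminal oxidase of respiration were higher. Of 9 cytochrome c oxidase genes, 8 were higher and 0 lower (88.9% higher and 0% lower), with a median of 0.42, and 5 were higher on slides A to C alone and 6 on D and E. COX7 had 1.04, 0.67 and 0.81 on slides A, B and C and 1.63 and 1.64 on slides D and E (mean 1.16 ± 0.45, adjusted p = 0.00082), and COX9 had 0.40, 0.45 and 0.98 on slides A, B and C and 0.58 and 0.93 on slides D and E (mean 0.67 ± 0.27). Both were positive on all slides. COX6 averaged 0.47 ± 0.41, with slide A at -0.14, and lost its call on slides A to C alone and without any 1 of slides B to E. Complex III, counted with cytochrome c, had 4 of 11 genes higher and 0 lower (36.4% higher and 0% lower). One that rose was QCR6, a subunit of the cytochrome bc1 complex (0.22, 0.40 and 0.55 on slides A, B and C and 0.36 and 0.54 on slides D and E). ATP synthase, with 3 of 13 genes higher and 1 lower (23.1% higher and 7.69% lower), was at the background upward and under it downward, and its median was -0.14 on A to C and 0.37 on D and E. INH1, the inhibitor of the enzyme, rose to 0.68 ± 0.44, while the stalk subunit ATP5 fell to -0.67 ± 0.14 (n = 4 slides). NDE1, an external NADH dehydrogenase, fell to -0.61 ± 0.39, though not in a fit to D and E alone (mean -0.27).

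**Figure D3:**
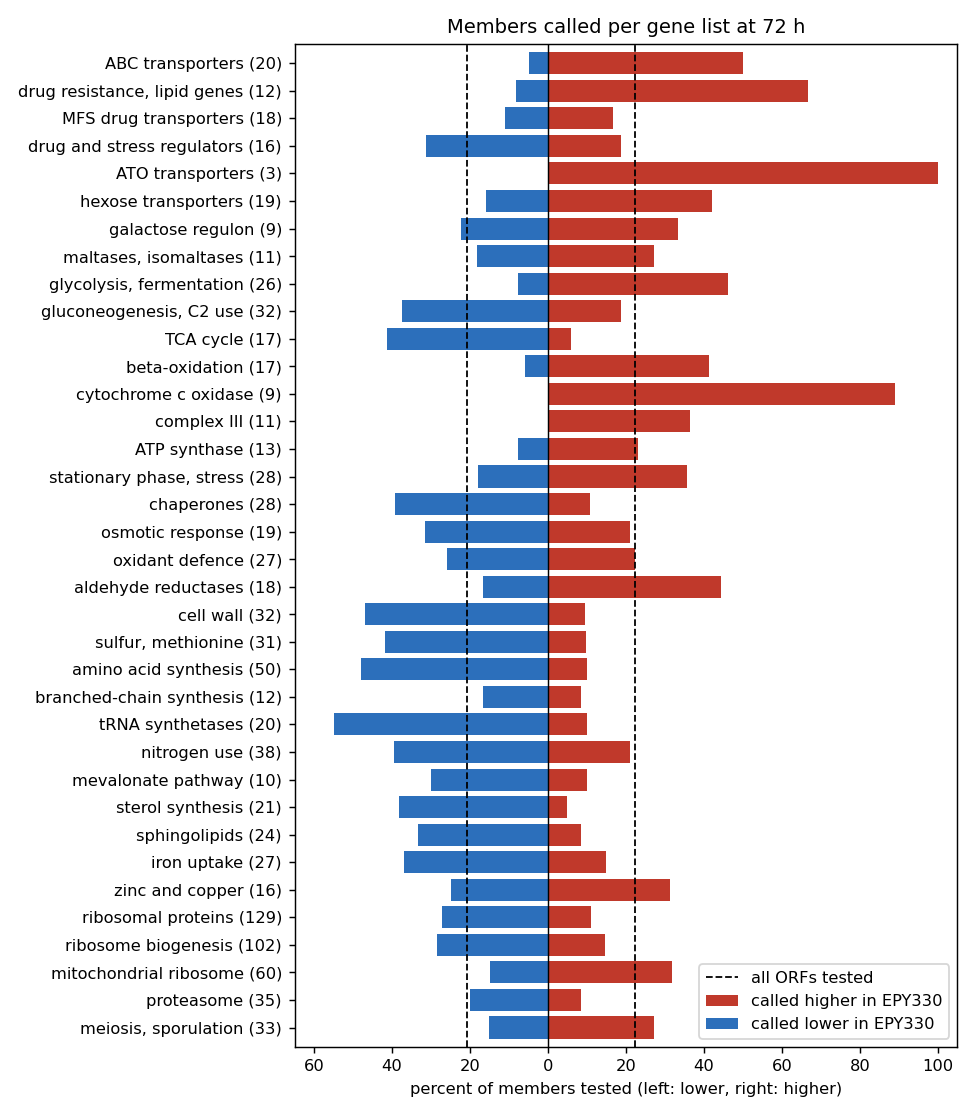
Percent of the measured members (number in brackets) of 36 gene lists called higher (bars to the right) or lower (bars to the left) in EPY330 at 72 h; dashed lines mark the 22.2% and 20.9% over all ORFs tested. ATO transporters (100%), cytochrome c oxidase (88.9%) and the drug resistance lipid genes (66.7%) reach farthest to the right, and tRNA synthetases (55%), amino acid synthesis (48%) and the cell wall (46.9%) farthest to the left.

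Small proteins of the stationary phase gave several of the largest rises, but stress genes as a whole were divided. SPG4, needed for survival in stationary phase, had 2.05, 1.52 and 1.97 on slides A, B and C and 2.18 and 2.93 on slides D and E (mean 2.13 ± 0.51, adjusted p = 0.000207). SIP18, a hydrophilin of the osmotic and desiccation response, had 1.53, 1.73 and 1.35 on slides A, B and C and 2.27 and 2.12 on slides D and E (mean 1.80 ± 0.39, adjusted p = 0.000189). Both were at or above 1.35 on every slide. TMA10, a ribosome-associated protein, averaged 1.61 ± 0.25, the membrane-bound small heat shock protein HSP12 1.08 ± 0.41 and SNZ1, a vitamin B6 gene of stationary cells, 1.10 ± 0.48, and all 3 were called higher. Of 28 genes of the stationary phase and general stress, these among them, 10 rose and 5 fell (35.7% higher and 17.9% lower), 5 of them more than 2-fold higher, with a median of 0.10 on A to C and 0.47 on D and E. Of 28 heat shock and chaperone genes, which share HSP12 and HSP26 with that list, 3 were higher and 11 lower (10.7% higher and 39.3% lower). Here 5 were higher and 14 lower on slides A to C alone, and 2 higher and 4 lower on D and E. HSP26, a small chaperone, had -1.06, -1.35 and -1.14 on slides A, B and C and -0.40 and -0.48 on slides D and E (mean -0.89 ± 0.42), and the cytosolic Hsp70 gene SSA1 had -1.18, -1.35 and -1.03 on slides A, B and C and -0.38 and -0.22 on slides D and E (mean -0.83 ± 0.50). Both were negative on each slide and shallower on D and E, where SSA1 alone was not called. Among 19 osmotic response genes 4 rose and 6 fell (21.1% higher and 31.6% lower). HOR7 rose to 1.18 ± 0.18, and GPD1, the first enzyme of glycerol synthesis, fell to -0.78 ± 0.25. NTH1, neutral trehalase, fell to -0.84 ± 0.25.

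Oxidant defence was close to the background over all 5 slides, with 6 of 27 genes higher (22.2%) and 7 lower (25.9%). The slide sets disagreed, as 5 were higher and 10 lower on slides A to C alone, and 11 higher and 6 lower on D and E, with medians of -0.07 and 0.37. TRR1, thioredoxin reductase, had -1.50, -1.42 and -1.01 on slides A, B and C and -0.52 and -0.87 on slides D and E (mean -1.06 ± 0.40, adjusted p = 0.000827). YHB1, the flavohemoglobin that detoxifies nitric oxide, fell to -0.95 ± 0.28 and the glutaredoxin GRX3 to -0.91 ± 0.24. GPX1, a glutathione peroxidase, rose to 0.80 ± 0.29, with slide E at 1.31 and the others from 0.60 to 0.76. Of 18 aryl alcohol dehydrogenases, aldehyde reductases and glutathione transferases 8 rose and 3 fell (44.4% higher and 16.7% lower). They were led by AAD6, an aryl alcohol dehydrogenase, with 1.30, 0.70 and 0.48 on slides A, B and C and 1.04 and 1.55 on slides D and E. The quinone reductase ZTA1 rose to 0.78 ± 0.22, with slide E at 1.17 as its highest.

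Cell wall genes were called lower more often than ORFs at large. Of 32 measured, 15 were lower and 3 higher (9.38% higher and 46.9% lower), with a median of -0.33, and lower members numbered 20 on slides A to C and 12 on D and E alone. Outside that list, PST1, a wall protein that is induced when the wall is damaged, had the lowest mean of all ORFs, with -2.04, -2.17 and -2.30 on slides A, B and C and -0.93 and -0.90 on slides D and E. It averaged -1.67 ± 0.69 (adjusted p = 0.000711), or 3.18-fold lower, and slides A to C lay more than 1 log2 unit below D and E. CRH1, a chitin-glucan transglycosylase and the lowest of the list, had -1.41, -1.80 and -1.54 on slides A, B and C and -0.85 and -0.76 on slides D and E (mean -1.27 ± 0.45, adjusted p = 0.00058). Also outside the list, TOH1, a GPI-anchored wall protein, had -1.53, -1.37 and -1.39 on slides A, B and C and -0.92 and -0.96 on slides D and E (mean -1.23 ± 0.27), and MID2, a sensor of wall stress, had -1.28, -1.06 and -0.89 on slides A, B and C and -0.74 and -1.59 on slides D and E (mean -1.11 ± 0.33). None of the 4 genes had a positive slide. Within the list the yapsin protease YPS3 fell to -1.02 ± 0.50. The wall protein HSP150 fell to -0.90 ± 0.53, without a call on D and E alone. CHS3, the enzyme of most wall chitin, rose instead, with 0.80, 0.81 and 0.83 on slides A, B and C and 0.97 and 1.34 on slides D and E (mean 0.95 ± 0.23, adjusted p = 0.000497).

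Genes of amino acid synthesis and of tRNA charging were often lower. Of 20 cytosolic tRNA synthetase genes 11 fell and 2 rose (55% lower, against 20.9% of all ORFs), and with the trend along the ORF order removed 7 fell. TYS1, which charges tyrosine, had -1.70, -1.37 and -0.73 on slides A, B and C and -1.13 and -1.41 on slides D and E (mean -1.27 ± 0.36, adjusted p = 0.000372), and ILS1, for isoleucine, averaged -0.75 ± 0.29 with slide D at -0.25. Of 50 genes of general amino acid synthesis 24 fell and 5 rose (10% higher and 48% lower), with a median of -0.25, and 12 fell on D and E alone. LYS21 and LYS20, the homocitrate synthases of lysine synthesis, averaged -0.96 ± 0.29 and -0.85 ± 0.39, and TRP4 of tryptophan synthesis -0.79 ± 0.29. In sulfate assimilation and methionine synthesis 13 of 31 genes fell and 3 rose (9.68% higher and 41.9% lower). CYS3, cystathionine gamma-lyase, had -1.35, -1.79 and -2.01 on slides A, B and C and -0.77 and -1.22 on slides D and E (mean -1.43 ± 0.49, adjusted p = 0.000515). It had the second lowest mean among ORFs with a value on all 5 slides, and CYS4, which acts just before it, fell to -0.78 ± 0.13 (n = 4 slides). SAM2, S-adenosylmethionine synthetase, had -1.06, -0.93 and -1.13 on slides A, B and C and -0.47 and -0.17 on slides D and E, and the methionine permease MUP1 had -0.37, -0.91 and -0.39 on slides A, B and C and -0.76 and -1.45 on slides D and E. Both were lower over the 5 slides, SAM2 without a call on D and E alone and MUP1 lowest on E.

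Nitrogen genes were split, with 15 of 38 lower and 8 higher (21.1% higher and 39.5% lower). With the ORF order trend removed 9 were lower and 5 higher. PUT1, proline oxidase, had -1.13, -1.67 and -1.26 on slides A, B and C and -0.97 and -1.17 on slides D and E (mean -1.24 ± 0.26, adjusted p = 0.000294), UGA1 of GABA breakdown averaged -0.86 ± 0.21, and DAL3 of allantoin use rose to 0.78 ± 0.10. In branched-chain synthesis 2 of 12 genes were lower and 1 higher over all 5 slides (8.33% higher and 16.7% lower), both under the shares over all ORFs. The count changed with the slide set, with 7 lower and 1 higher on A to C alone and 1 lower and 1 higher on D and E. ILV5, a shared enzyme of valine and isoleucine synthesis, had -0.85, -1.01 and -1.13 on slides A, B and C and 0.08 and 0.46 on slides D and E and was not called (adjusted p = 0.106).

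Of the genes engineered or used as markers, LEU2 was the lowest. LEU2, carried by the plasmids as Leu2d and absent from the hosts' own chromosomes, had -1.36, -1.27 and -1.41 on slides A, B and C and -1.25 and -0.72 on slides D and E (mean -1.20 ± 0.28, adjusted p = 0.000317). Slide E stood apart from the other 4 and was still negative. Plasmid copies per cell were not measured on these slides, so fewer LEU2 copies and less LEU2 transcript per copy cannot be told apart. ERG20, farnesyl diphosphate synthase with an added galactose-driven copy, had -1.16, -1.04 and -0.88 on slides A, B and C and -0.30 and -0.19 on slides D and E (mean -0.71 ± 0.44, adjusted p = 0.0064), with no call on slides D and E alone. UPC2, the sterol regulator also present as upc2-1, had -1.35 on slide B, -0.99 on slide C, -1.16 on slide D and -0.64 on slide E (mean -1.04 ± 0.30, adjusted p = 0.000956). ERG9, squalene synthase behind the MET3 promoter, averaged -0.56 ± 0.37, a call lost on D and E alone. MET3 itself averaged 0.30 ± 0.14, and that call was lost on each slide set alone and with the ORF order trend removed. HMG1, whose spot can also bind the truncated reductase, had 0.15, 0.74 and 0.98 on slides A, B and C and 0.01 and 0.11 on slides D and E and was not called (adjusted p = 0.0629). LYS2, repaired in both strains, was higher on all slides (0.89, 1.05 and 0.91 on slides A, B and C and 0.72 and 1.21 on slides D and E, mean 0.96 ± 0.18), URA3, also repaired, averaged -0.15 ± 0.16 without a call (n = 4 slides), and HIS3 was lower at -0.49 ± 0.16, though not on D and E alone.

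Of 21 genes from squalene to ergosterol, counted with the sterol regulators and so with ERG9 and UPC2, 8 fell and 1 rose (4.76% higher and 38.1% lower), although the median of the list was 0.03. Of these, 0 were higher and 7 lower on slides A to C alone, and 5 higher and 4 lower on D and E. ERG7, lanosterol synthase, averaged -0.59 ± 0.36, and NCP1, the yeast's own P450 reductase, had -0.79, -0.80 and -0.96 on slides A, B and C and -0.55 and 0.02 on slides D and E with slide E near 0 and no call on D and E alone. CBR1, the NADH-cytochrome b5 reductase that also passes electrons to sterol enzymes, fell more, with -1.56, -1.25 and -0.90 on slides A, B and C and -0.67 and -1.07 on slides D and E (mean -1.09 ± 0.34, adjusted p = 0.00055). Upstream of farnesyl diphosphate 3 of 10 mevalonate pathway genes fell and 1 rose (10% higher and 30% lower), with ERG13, HMG-CoA synthase, at -0.94, -0.42 and -0.52 on slides A, B and C and -0.58 and -0.83 on slides D and E (mean -0.66 ± 0.22). Sphingolipid genes were lower in 8 of 24 and higher in 2 (8.33% higher and 33.3% lower), and LCB2, a subunit of serine palmitoyltransferase, averaged -0.92 ± 0.35, or -0.45 with the ORF order trend removed, still a call. In fatty acid and phospholipid synthesis 9 of 34 rose and 6 fell (26.5% higher and 17.6% lower), near the background. OLE1, the fatty acid desaturase, was the largest of these at 0.43, 0.48 and 0.73 on slides A, B and C and 1.15 and 1.42 on slides D and E (mean 0.84 ± 0.43), and INO1, inositol phosphate synthase, fell to -0.64 ± 0.25, without a call on D and E alone.

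Iron uptake genes were lower in 10 of 27 and higher in 4 (14.8% higher and 37% lower). TIS11, an RNA-binding protein that clears transcripts of iron-using enzymes when iron is scarce, had -1.78, -1.19 and -1.34 on slides A, B and C and -1.04 and -1.70 on slides D and E (mean -1.41 ± 0.32, adjusted p = 0.000294). FET3, the ferroxidase of high-affinity uptake, had -0.76, -1.23 and -0.88 on slides A, B and C and -0.98 and -0.88 on slides D and E (mean -0.95 ± 0.18, adjusted p = 0.000357), and FIT3, a wall protein that holds siderophores, had -1.18, -1.22 and -1.08 on slides A, B and C and -0.42 and -0.67 on slides D and E (mean -0.91 ± 0.35, adjusted p = 0.00109). All 3 were negative on every slide. ATX1, a copper chaperone that serves FET3, rose instead, with 1.10 on slide A, 1.56 on slide D and 1.36 on slide E. The metallothionein spots CUP1-1 and CUP1-2, which share their sequence, rose to 1.11 ± 0.27 and 1.20 ± 0.25. ZRT1, the high-affinity zinc importer, had -1.13, -1.01 and -0.48 on slides A, B and C and -0.59 and -1.59 on slides D and E (mean -0.96 ± 0.45, adjusted p = 0.00167), and IZH1, another gene of zinc response, fell to -0.93 ± 0.27. HEM13 of heme synthesis averaged -0.89 ± 0.23, and -0.41, still a call, with the ORF order trend removed.

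Cytosolic ribosomal protein genes differed in direction between the slide sets. Over all slides 35 of 129 were lower and 14 higher (10.9% higher and 27.1% lower), with a median of -0.21. Slides A to C alone gave 64 lower and 6 higher, and slides D and E gave 13 lower and 28 higher. RPL41A had 0.74, 1.03 and 0.83 on slides A, B and C and 1.49 and 1.78 on slides D and E (mean 1.17 ± 0.45) and RPS11B had -1.36, -1.29 and -1.19 on slides A, B and C and -0.68 and -0.56 on slides D and E (mean -1.02 ± 0.37), each with 1 sign on all slides. Ribosome biogenesis factors were lower in 29 of 102 and higher in 15 (14.7% higher and 28.4% lower), and PWP1, a factor of large subunit assembly, was even over the slides, with -0.81, -0.85 and -0.88 on slides A, B and C and -0.85 and -0.82 on slides D and E. Mitochondrial ribosomal genes leaned upward, with 19 of 60 higher and 9 lower (31.7% higher and 15% lower), and MRPL31 of the large subunit averaged 1.11 ± 0.36 (n = 4 slides). The proteasome was under the background upward, at 3 of 35, and near it downward, at 7 (8.57% higher and 20% lower), and its median was -0.07.

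**Figure D4:**
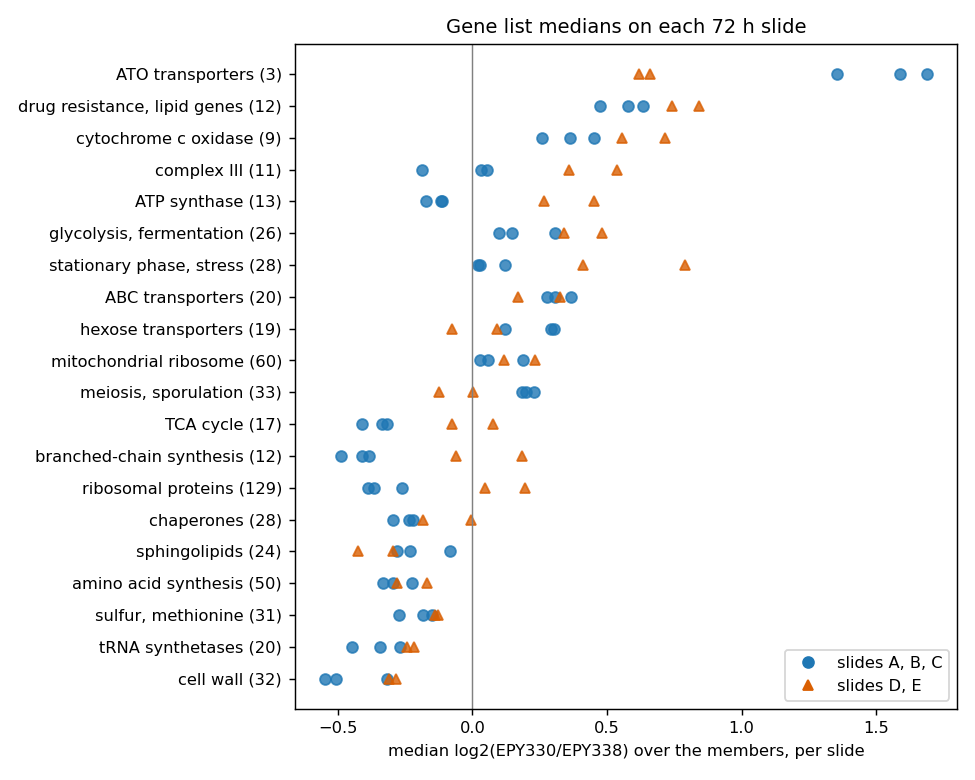
Median log2(EPY330/EPY338) over the measured members of 20 gene lists on each 72 h slide; circles are slides A to C and triangles D and E, and the number of members is in brackets. The sets lie on opposite sides of 0 for ribosomal proteins and ATP synthase and on 1 side for cytochrome c oxidase, amino acid synthesis and the cell wall.

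Some large differences lay outside these groups. MTD1, which oxidises methylenetetrahydrofolate, had 1.62, 1.84 and 1.34 on slides A, B and C and 1.55 and 1.45 on slides D and E (mean 1.56 ± 0.19, adjusted p = 0.000128), and PAI3, an inhibitor of the vacuolar protease A, had 0.90, 1.26 and 1.27 on slides A, B and C and 1.91 and 2.47 on slides D and E (mean 1.56 ± 0.63). ISF1, a gene of respiratory growth, averaged 1.52 ± 0.47. YMR084W, an ORF without a gene symbol, was even over the slides, with 1.56, 1.65 and 1.44 on slides A, B and C and 1.65 and 1.75 on slides D and E, and YOL053C-A, an ORF name that the annotation did not match, was not, with 1.23, 1.5 and 1.09 on slides A, B and C and 2.31 and 3.13 on slides D and E. ADE17 of purine synthesis averaged 1.09 ± 0.31 and URA2, the first enzyme of pyrimidine synthesis, 1.05 ± 0.31, whereas URA7, CTP synthase, and IMD2, IMP dehydrogenase, fell to -0.90 ± 0.14 and -0.98 ± 0.20. All 10 histone genes were called, 5 higher and 5 lower (50% higher and 50% lower, against 22.2% and 20.9% of all ORFs). With the ORF order trend removed 1 was higher and 3 lower. Slides A to C alone gave 1 higher and 4 lower, and D and E alone 5 higher and 3 lower. The early secretory pathway was near the background, with 10 of 37 genes lower and 8 higher (21.6% higher and 27% lower). ERP2, a p24 cargo protein, had -1.08, -1.05 and -0.46 on slides A, B and C and -0.78 and -1.06 on slides D and E, the translocon gene SEC61 averaged -0.77 ± 0.08, and TRS23 of the TRAPP complex rose to 1.05 ± 0.32. Among the lowest were also MLG1 at -1.15 ± 0.40, YCRX05W, unmatched in the annotation, at -1.11 ± 0.26 and YLR179C at -1.09 ± 0.41. Of 9 genes commonly taken as stable, 1 was called higher (TFC1, 0.36 ± 0.31, lost on D and E alone and with the ORF order trend removed) and 1 lower (TRS65, -0.60 ± 0.31, lost with that trend removed). ACT1, actin, had -0.62, -0.56 and -0.44 on slides A, B and C and 0.17 and 0.01 on slides D and E. It was not called over all 5 slides but was called lower on A to C alone (mean -0.54).

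The ORFs past 2-fold at 72 h were chosen at that time, which by itself lowers the number past the same limit earlier. The counts below therefore do not measure how much of the 72 h pattern was there before. Likeness to the earlier times also depended on the slide set, being closer for slides D and E than for A to C. Of the 110 ORFs more than 2-fold higher at 72 h, 36 had a mean above 1 at 24 h and 45 at 48 h, and 16 were under 0.5 at both. Of the 41 more than 2-fold lower, 6 were below -1 at 24 h and 5 at 48 h, while 18 were above -0.5 at both. The differences between times were tested in limma over all 14 slides, in 5652 ORFs. Against 24 h the ratio was higher at 72 h in 292 ORFs (5.17%) and lower in 518 (9.16%), and against 48 h it was higher in 788 (13.9%) and lower in 921 (16.3%). These counts depended on single slides, since the 810 ORFs that differed from 24 h became 174 without slide B of 24 h, 242 without D of 24 h, 277 to 288 without any 1 of slides A, B or C of 72 h and 1280 without B of 48 h. The 1709 that differed from 48 h became 1079 without slide D of 48 h and 1117 without A of 72 h. Both earlier times share the 72 h slides in these comparisons.

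Several drug resistance genes had a lower ratio at 72 h than at 24 h. PDR5 averaged 3.17 ± 0.53 at 24 h, 2.50 ± 0.57 at 48 h and 2.03 ± 0.41 at 72 h, a difference of -1.14 between 72 and 24 h (adjusted p = 0.0212, lost without slide D of 24 h). PDR16 differed by -1.65 from 24 h and -1.74 from 48 h (adjusted p = 0.0114, lost without slide B of 24 h, and 0.0027). The difference between 72 and 24 h was -2.17 for ICT1 (adjusted p = 3.1e-05) and -2.24 for GRE2 (adjusted p = 0.00185). PDR15 averaged 3.14 ± 0.33 at 24 h, 2.48 ± 0.33 at 48 h and 2.42 ± 0.40 at 72 h, and its difference from 24 h (-0.73, adjusted p = 0.0427) lost its call without any 1 of 9 of the 14 slides. SNQ2 and YOR1 differed from 24 h by -0.99 and -0.94 (adjusted p = 0.0207 and 0.0196), lost for SNQ2 without slide B of 24 h or of 72 h and for YOR1 without slide B of 24 h or A of 72 h. TPO1 differed from 48 h by -1.11 (adjusted p = 0.00313). TPO2 crossed over, with -0.05 ± 0.36 at 24 h, 1.04 ± 0.24 at 48 h and -1.20 ± 0.50 at 72 h (72 minus 48 h, -2.24, adjusted p = 3.51e-05).

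Other genes differed at 72 h from 1 or both earlier times. HXT1 averaged 0.96 ± 0.59 at 24 h, 0.35 ± 0.43 at 48 h and 2.37 ± 0.99 at 72 h (72 minus 48 h, 2.02, adjusted p = 0.00215), and HXT2 differed from 48 h by 1.30 (adjusted p = 0.0163, lost without slide C of 72 h). PST1 averaged -0.09 ± 0.40 at 24 h and 0.13 ± 0.47 at 48 h, and differed from 48 h by -1.80 (adjusted p = 0.0013). CRH1 averaged -0.09 ± 0.45 at 24 h and -0.16 ± 0.35 at 48 h, and differed from 48 h by -1.12 (adjusted p = 0.00445). LEU2 averaged -0.0029 ± 0.19 at 24 h and -0.17 ± 0.11 at 48 h, and differed from 48 h by -1.03 (adjusted p = 0.000966). ACS2 averaged 0.65 ± 0.17 at 24 h, 0.29 ± 0.44 at 48 h and -0.98 ± 0.22 at 72 h (72 minus 24 h, -1.62, adjusted p = 0.000211). TIS11 and FIT3 both lay above 0 at 48 h, at 0.34 ± 0.45 and 0.76 ± 0.09, and differed by -1.75 and -1.67 at 72 h (adjusted p = 0.000311 and 3.51e-05). HIS3 averaged 0.29 ± 0.28 at 24 h, 1.30 ± 0.64 at 48 h and -0.49 ± 0.16 at 72 h, and differed by -1.80 from 48 h (adjusted p = 0.000438).

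Respiratory and late-culture genes also differed between times, not all in the same direction. COX7 averaged 2.27 ± 0.37 at 24 h, 2.77 ± 0.69 at 48 h and 1.16 ± 0.45 at 72 h (72 minus 48 h, -1.62, adjusted p = 0.00184), and 7 of the 9 cytochrome c oxidase genes had a lower ratio at 72 than at 48 h and 1 a higher one, against 16.3% and 13.9% of all ORFs. SPG4 averaged 0.85 ± 0.08 at 24 h and 3.29 ± 0.23 at 48 h, and differed from 48 h by -1.16 (adjusted p = 0.00184). ADH2 and ADY2 were higher than at 24 h by 1.39 and 1.60 (adjusted p = 0.000608 and 0.00386). ATO2 differed from 48 h by -0.95 (adjusted p = 0.00463). The drop from 48 h was not particular to respiratory genes. Of 125 ribosomal protein genes in the time comparison 93 had a lower ratio than at 48 h and 0 a higher one. A lower ratio was also called for 24 of 35 proteasome genes and 12 of 17 TCA cycle genes, and a higher one for 0 in either list. Among the called differences from 48 h, the most negative besides that of TPO2 were those of PRM7 (-2.32), YHL026C (-2.15), PUN1 (-1.97), a membrane protein of nitrogen stress that was called lower at 72 h but not on D and E alone, and GRE2 (-1.88). The most positive after that of HXT1 were those of ECM11 (1.84) of meiosis, YAL066W (1.79), the sporulation septin SPR3 (1.76) and the wall protein gene PIR5 (1.75). The means of these last 4 were between -2.49 and -1.82 at 48 h and between -0.65 and -0.03 at 72 h, that of ECM11 being -0.43 without slide E and not called on A to C alone.

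**Figure D5:**
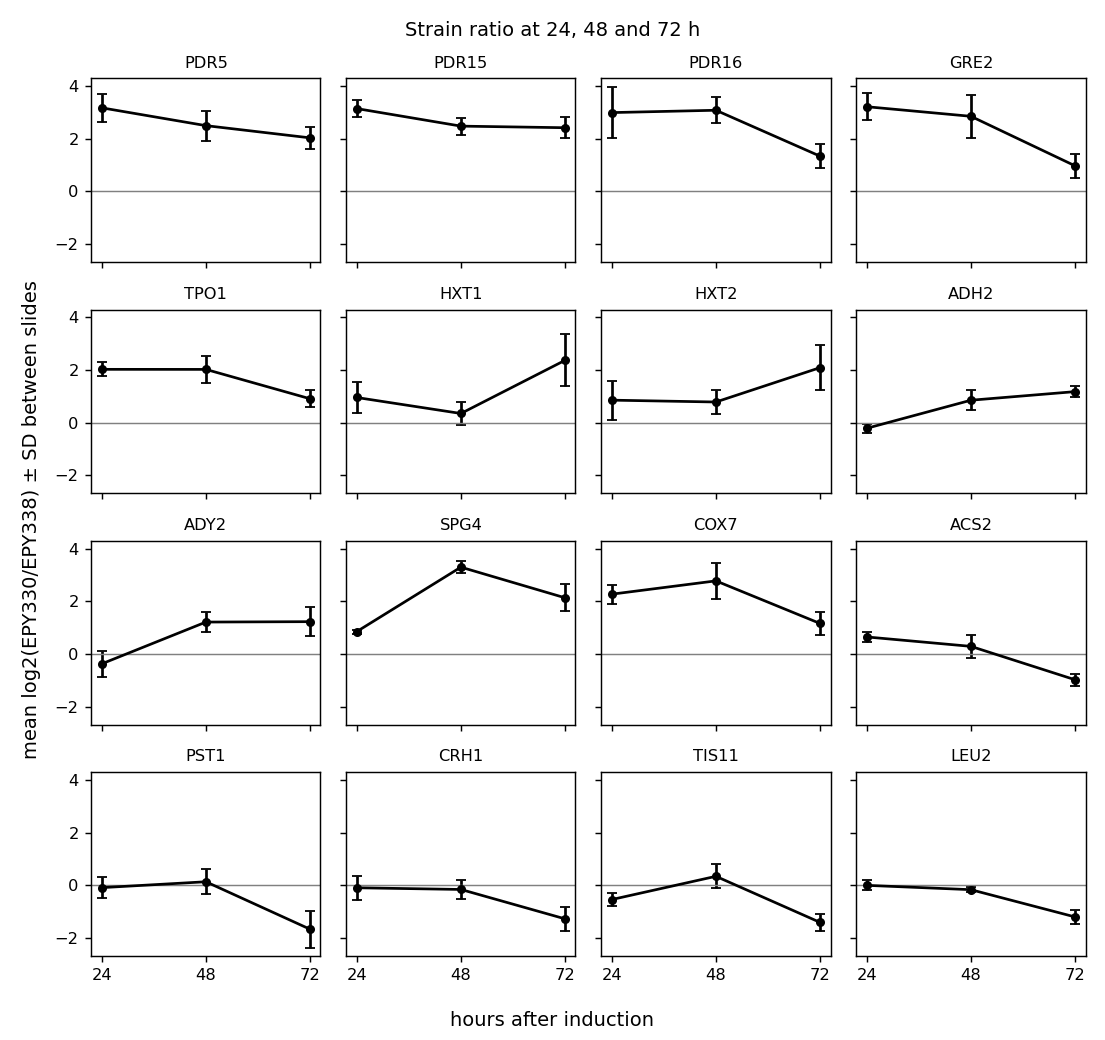
Mean log2(EPY330/EPY338) at 24 h (4 slides), 48 h (5 slides) and 72 h (5 slides) for 16 genes, with bars for the SD between slides. PDR16, GRE2, TPO1, COX7, ACS2, PST1 and TIS11 had a lower ratio at 72 h than at 48 h, and HXT1 and HXT2 a higher one.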

How the data were processed

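RNA of both strains was hybridised in 2 colours to slides double-spotted with the predicted yeast ORFs. The authors extracted fluorescence with GenePix Pro, removed aberrant and dim spots and normalised each slide by lowess in BRB-ArrayTools. The deposited log2 values were EPY338 over EPY330, and their sign was turned to give log2(EPY330/EPY338). Intensities were not analysed here, and having 5 slides is one limit on precision.

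ORFs with at least 3 values at 72 h were tested with limma 3.58.1 in R 4.3.3 (lmFit, eBayes, Benjamini-Hochberg), on the means of the slides against 0 at 72 h and with the time point as group in a fit to all 14 slides. The methods' own test, SAM at a false discovery rate of 0.2%, was run as an alternative over all 32 sign flips. Other alternatives changed the threshold, the filter, centring, weights, the variance model, the ORF order trend, the replicate block and the slides used. Fits to slides A to C, to D and E and with these sets as a random block were chosen after seeing the data. The scripts were tested on simulated data. ORF names were matched to RefSeq symbols for 5546 ORFs.

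The gene lists and members were chosen with earlier results of these data known. Genes named were taken from the 15 highest and 15 lowest means of one sign on all 5 slides and up to 4 members of each list with the largest absolute mean. Further sources were the strain, marker and stable-reference genes, PDR1, PDR3 and the 5 largest called changes each way between 48 and 72 h. Not every gene picked in this way is named, and IPP1, TAF10, UBC6 and TUB2 of the stable-reference genes are among those left out of the account. Promoter sequences and motifs were not analysed here.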

Additional observations from a re-analysis of the deposited data

Results flagged for a closer look

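In 9 of 138 genes named in the text with values on 4 or 5 of the 72 h slides, 1 slide stood far from the others by Dixon's criterion, which chance meets in about 1 in 20 groups. TPO1 read 1.48 on slide E, with 0.61 to 0.84 on the other slides. SGE1 read -0.82 on slide C, with -0.64 to -0.58 on the other slides. MSN4 read 0.27 on slide B, with -0.78 to -0.64 on the other slides. GAL7 read 0.0557 on slide D, with 0.91 to 1.20 on the other slides. LEU2 read -0.72 on slide E, with -1.41 to -1.25 on the other slides. ILS1 read -0.25 on slide D, with -0.95 to -0.84 on the other slides. GPX1 read 1.31 on slide E, with 0.60 to 0.76 on the other slides. ZTA1 read 1.17 on slide E, with 0.59 to 0.73 on the other slides. INO1 read -0.21 on slide D, with -0.80 to -0.66 on the other slides. The outlying slide was E in 4 of these genes and D in 3, and MSN4 alone among them changed sign. The cause was not tested.

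For 51 differences between times the ratio of a named gene at 72 h differed from that at an earlier time in the limma fit to all 14 slides, at an adjusted p under 0.05. Among lower ratios, 72 h minus 24 h was -0.73 for PDR15, -1.14 for PDR5, -0.99 for SNQ2, -0.94 for YOR1, -1.65 for PDR16 and -2.17 for ICT1. It was -2.24 for GRE2, -1.12 for TPO1, -1.15 for TPO2, -1.62 for ACS2, -1.11 for COX7 and -1.58 for PST1. Further differences of this kind were -1.18 for CRH1, -1.20 for LEU2, -0.87 for TIS11, -1.21 for FIT3, -1.44 for PRM7, -1.42 for YHL026C and -1.24 for PUN1. Among higher ratios, 72 h minus 24 h was 1.41 for HXT1, 1.23 for HXT2, 1.39 for ADH2, 1.60 for ADY2, 1.28 for SPG4 and 1.28 for YAL066W. It was 1.19 for ECM11 and 1.22 for SPR3. Among lower ratios, 72 h minus 48 h was -1.74 for PDR16, -1.11 for ICT1, -1.88 for GRE2, -1.11 for TPO1, -2.24 for TPO2 and -1.27 for ACS2. It was -1.62 for COX7, -0.95 for ATO2, -1.16 for SPG4, -1.80 for PST1, -1.12 for CRH1 and -1.03 for LEU2. Further differences of this kind were -1.80 for HIS3, -1.75 for TIS11, -1.67 for FIT3, -2.32 for PRM7, -2.15 for YHL026C and -1.97 for PUN1. Among higher ratios, 72 h minus 48 h was 2.02 for HXT1, 1.30 for HXT2, 1.75 for PIR5, 1.79 for YAL066W, 1.84 for ECM11 and 1.76 for SPR3. Of the 51, 36 kept their call when each of the 14 slides was left out in turn. The difference of PDR15 from 24 h lost its call without any 1 of 9 slides, that of HXT2 without any 1 of 7 and that of SPR3 without any 1 of 7. The 72 h slides are shared by both comparisons.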

How the results depend on the processing

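SAM at its own threshold, which changes the test and the threshold together, gave 359 ORFs at 72 h, 268 higher and 91 lower, against 2562 (1317 and 1245) in limma, and limma called all 359. At an adjusted p of at most 0.01, limma gave 1377 (753 higher, 624 lower). With the slide sets as a random block limma gave 1721 (919 higher, 802 lower). Under that setting 8 of the 127 called genes named in the text lost their call. Slides D and E alone gave 289 ORFs past 2-fold, 232 of them higher, and slides A to C alone gave 75 more than 2-fold lower, against 151, 110 and 41 over all 5 slides. Centring, robust variances, complete ORFs, slide weights and removal of the ORF order trend left these 72 h counts within 1.5 times. Leaving out each slide gave 1806 to 2316 called (962 to 1208 higher, 844 to 1108 lower) and 118 to 165 past 2-fold (80 to 120 higher, 24 to 56 lower).

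The time differences were less stable. For 72 minus 24 h (810, 292 higher, 518 lower), slide weights gave 2673 (1290 and 1383), the slides of both time points only gave 1483 (653 and 830), and 119 (19 and 100) passed an adjusted p of at most 0.01. Single slides left out gave 174 to 1280 (30 to 529, 144 to 751). For 72 minus 48 h (1709, 788 higher, 921 lower), slide weights gave 3164 (1577 and 1587), 624 (234 and 390) passed an adjusted p of at most 0.01, and single slides left out gave 1079 to 2380 (452 to 1153, 627 to 1227). With the replicate letter as a replicate block, 1140 ORFs (474 higher, 666 lower) differed from 24 h and 1698 (782 and 916) from 48 h. Deviations of slides of 1 letter from their time means had r from -0.23 to 0.38 across times. The own letter gave the highest r for A against both earlier times and for D against 48 h, but not for the others. Deviations at 72 h also hold the split between the slide sets, so this check cannot decide whether the letter pairs the slides.

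Of 127 called genes named in the text, 118 kept the call in each fit made without 1 of the 72 h slides. ATX1 is counted among the 118 but, with values on slides A, D and E only, could not be fitted without any of these. SAM at its own threshold did not call 49 of the 127, and 11 were not called at an adjusted p of at most 0.01. None of the 127 turned its sign on slides A to C, on D and E or with the ORF order trend removed. YAL066W, uncalled at -0.03 on all 5 slides, was called higher at 0.31 on slides A to C and lower at -0.53 on D and E. Of the other uncalled genes, PDR3, GAL1, PRM7, SPR3, ILV5, ACT1 and YHL026C also had means of opposite sign on the slide sets. Some of these gained a call on a single set, as ACT1 and YHL026C did on A to C and GAL1 and SPR3 on D and E. The causes were not tested. With 5 slides of 1 pair of pools, differences between transformants could not be assessed.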
